A study of Oryza sativa Japonica Group with 8 samples.

Results

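The heat shock genes of rice were compared between leaves of seedlings grown with carbon dots (CD) and leaves of seedlings grown without them (CK, the control). The 38 genes were taken by identifier out of 55801 in the count table. They comprise 7 class A heat shock factors (HSFs), 6 HSFs of classes B and C, 15 small heat shock proteins (HSPs), 1 HSP101 gene, 4 HSP90 genes and 5 HSP70 genes. A symbol could be matched by position for 30 of them, and HSFB2B was matched inside a gene model longer than its record. The other 7 genes (5 HSP70 and 2 HSP90) met a record without a symbol and are given by identifier and listed class. Both groups were leaves of the cultivar Nipponbare (Oryza sativa, Japonica group) raised from surface-sterilized seed. CD seedlings grew hydroponically in 1/2 MS, a mineral salt medium, with carbon dots (carbon nanoparticles) at 0.56 mg/ml, and CK seedlings grew in 1/2 MS without them. The labels give an age of 2 weeks and the treatment protocol gives 3 weeks of growth. Each group had 2 RNA-seq libraries, and no group was exposed to heat as far as the labels say. Whether the replicates are separate plants, pools or repeat extractions is not labelled, and p-values therefore cover only the variation among these libraries, part of which may be technical.

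Heat shock factors are transcription factors that bind heat shock elements in promoters. Class A members carry an activation domain and switch on chaperone genes, class B members lack that domain and often act as repressors, and class C is expanded in grasses. Among the chaperones, small HSPs hold unfolding proteins without using ATP, HSP70 folds and refolds proteins with ATP, HSP90 matures signalling proteins and holds HSFs in check, and HSP101 pulls proteins out of aggregates. Several of these genes are nearly silent in unstressed leaves and are switched on strongly by heat, and others are needed for normal growth.

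Library depth ranged between 49281927 counts (CD replicate 2) and 80317398 counts (CK replicate 1). The counts of any pair of libraries differed beyond sampling noise, with a chi-square per degree of freedom of 137.7 between the CD libraries and 81.5 between the CK libraries. Against CK replicates 1 and 2 it was 223.8 and 141 for CD replicate 1, and 116.4 and 125.2 for CD replicate 2. By this measure CD replicate 2 lay nearer to both controls than to CD replicate 1. The measure grows with depth, which differed between the pairs. Leaf markers (5 genes for RuBisCO, its activase and chlorophyll a/b binding proteins) were detected in all 4 libraries, with none at 0. Of the 3 root markers, the silicon transporter gene Lsi2 was at 0 counts in all 4, while Lsi1 and NRAMP5 brought the sum to 30.01 and 34.02 TPM in CD libraries, against 35.5 and 42.7 TPM in CK libraries.

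The 38 genes covered a wide range of levels in leaves, from the abundant HSP70 gene LOC_Os11g47760 to HSP21.9, which had 0 counts in every library. By mean TPM (transcript abundance corrected for gene length and scaled to the same total in each library), 5 members were over 100, 12 lay between 10 and 100, 11 between 1 and 10, and 10 under 1. Their summed level was 5213 TPM in CD replicate 1 and 4076 TPM in CD replicate 2, against 3259 TPM in CK replicate 1 and 4367 TPM in CK replicate 2. That is 0.521% and 0.408% of all TPM in the CD libraries, and 0.326% and 0.437% in the CK libraries, so the groups overlapped. Of these sums, LOC_Os11g47760 alone held 3301 and 2417 TPM in the CD libraries, against 1794 and 2731 TPM in the CK libraries. The chaperone classes other than HSP101, whose only member is CLPB1, were each dominated by 1 gene. The HSP70 gene LOC_Os11g47760 held between 88.9% and 90.3% of its class in each library, the small HSP gene HSP17.9B held 83.7% to 92.6%, and HSP81-2 held 78.9% to 83.2% of the HSP90 class.

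**Figure D1:**
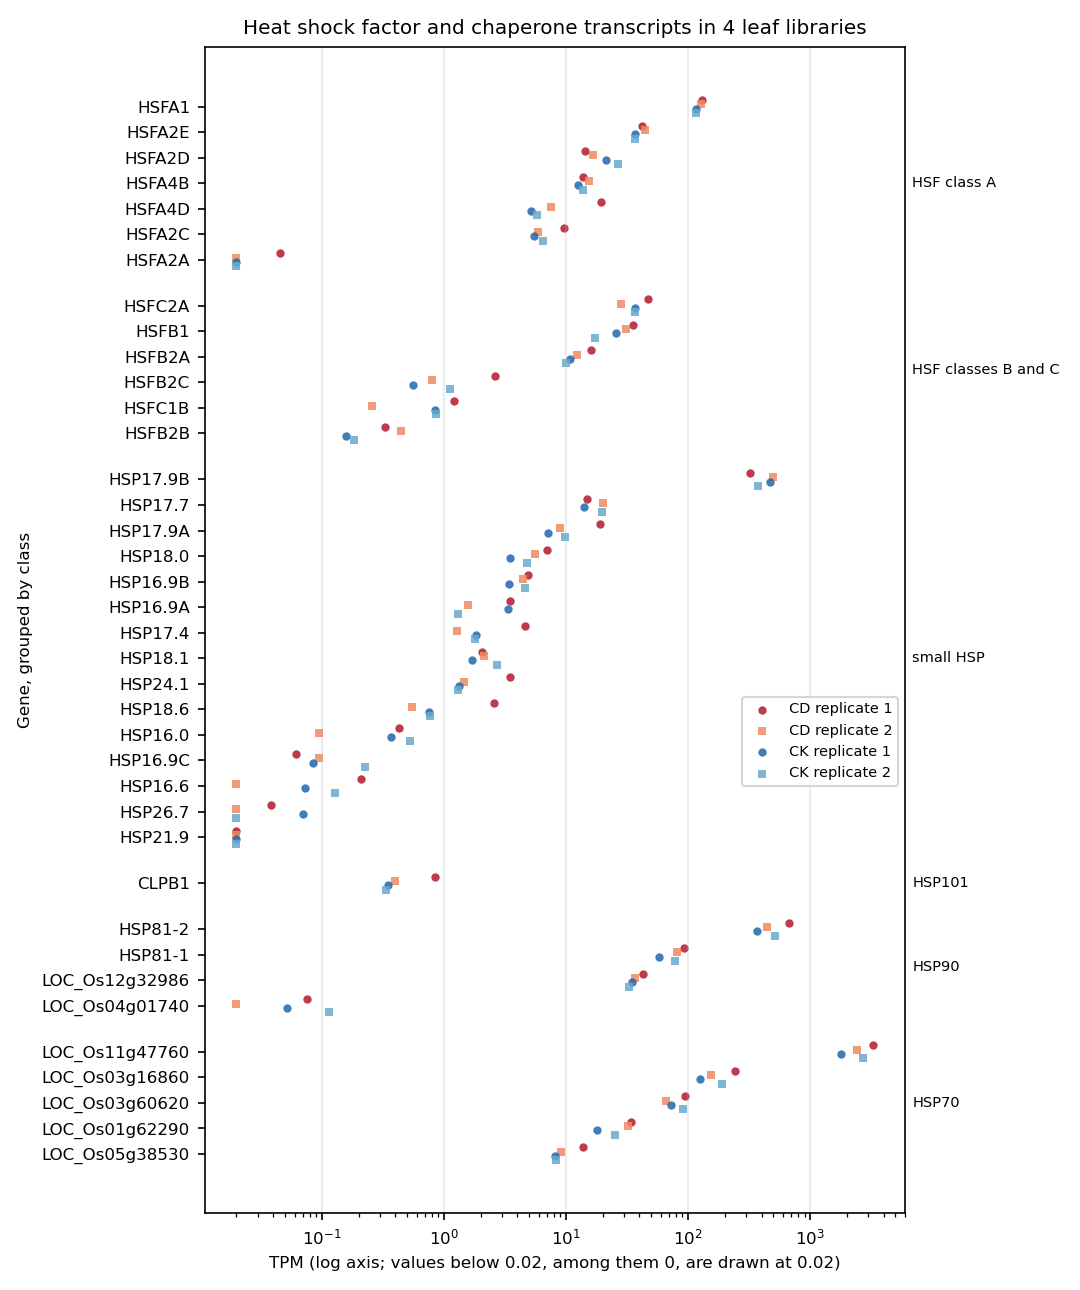
Level of each of the 38 genes in each of the 4 libraries, in TPM on a log axis, grouped by class and ordered by mean TPM within the class. Red and orange points are the CD libraries and blue points the CK libraries; the points of a gene are offset vertically for legibility, and values under 0.02, 0 among them, are drawn at 0.02.

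None of the 38 members passed the test between CD and CK leaves, in a fit where edgeR called no gene at all. After a filter on low counts 32 of the 38 members were tested. edgeR's quasi-likelihood test called 0 of these 32 at an adjusted p of 0.05, on a background of 0 of 26271 genes (0.0%), and their adjusted p ranged between 0.474 and 1.0. DESeq2 also called 0 of the 32, against 502 of all genes (1.91%). At an unadjusted p under 0.05 by edgeR, HSFA4D was higher (1 of 32, with 876 of all genes, 3.33%) and HSFA2D was lower (1 of 32, with 1410 of all genes, 5.37%). The log2 fold changes, CD over CK, ran from -0.81 for HSP16.0 to 1.16 for HSFA4D. Their median was 0.22, beside 0.01 over all genes tested, and 23 of the 32 were above 0, beside 51.0% of all genes. In bulk leaf RNA, fewer cells of a type and less RNA per cell cannot be told apart.

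On CPM values (counts scaled to library size, here corrected for composition by TMM), both CD libraries stood higher than both CK libraries for 11 of the 32 members, beside 17.8% of all genes. These were HSFA1, HSFA2E, HSFA4D, HSFB1, HSFB2A, HSFB2B, HSP18.0, HSP24.1, CLPB1 and the HSP70 genes LOC_Os01g62290 and LOC_Os05g38530. No minimum gap was asked for, and for HSFA1 the lower CD value was 151 CPM against 149 CPM for the higher CK value. Both CD libraries stood lower than both CK libraries for 1 of the 32, HSFA2D, beside 20.7% of all genes. The groups overlapped for the other 20. The median shrank to 0.02 without CD replicate 1, with 16 of 33 members below 0, and was 0.42 without CD replicate 2; LOC_Os04g01740, an HSP90 gene with few counts, passed the filter in both of those fits but not in the full one.

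**Figure D2:**
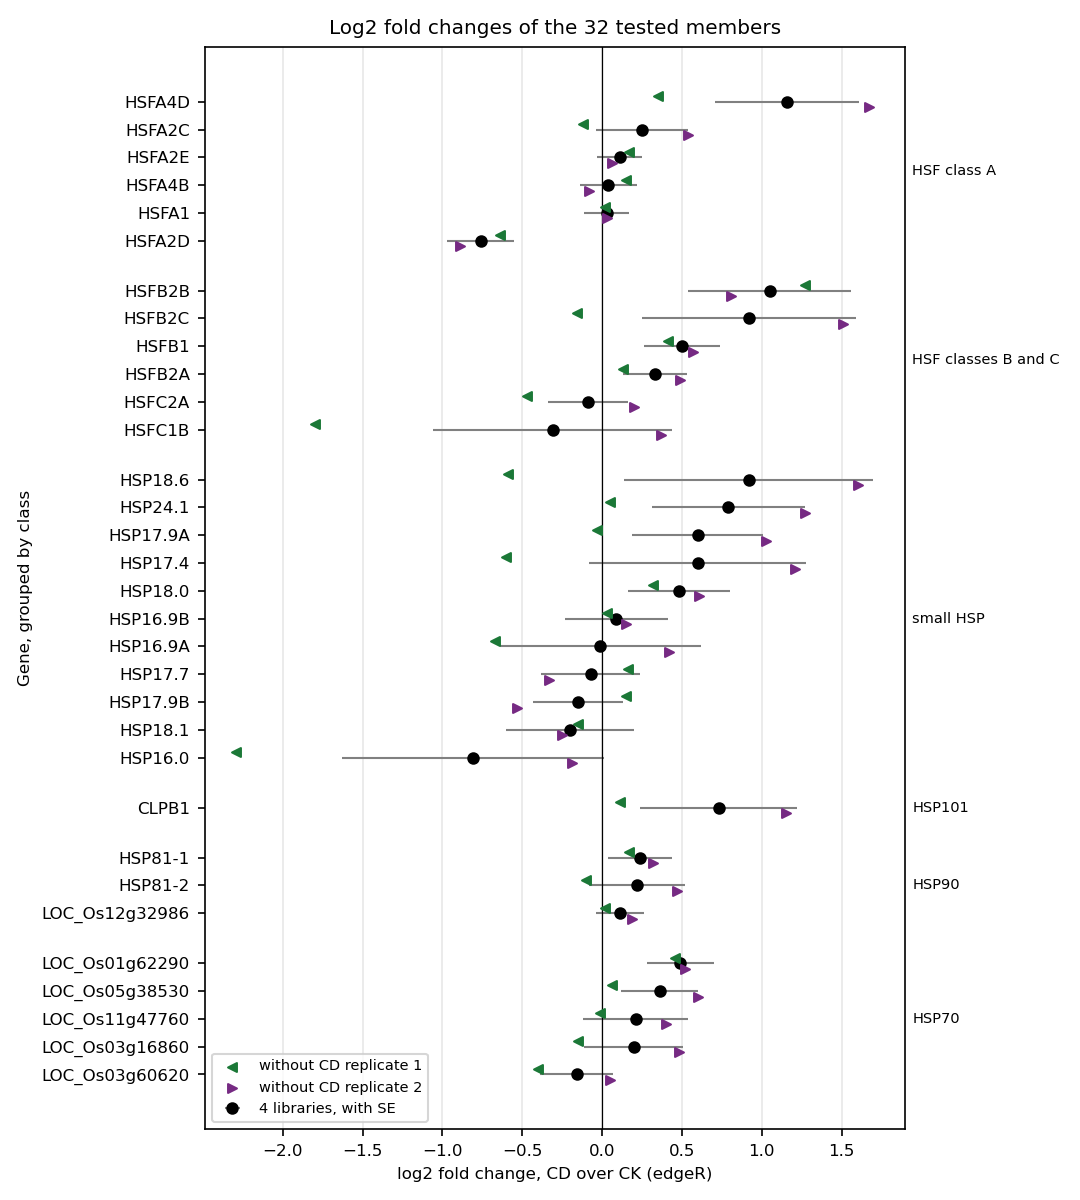
Log2 fold change, CD over CK, of the 32 tested members by edgeR, grouped by class: black points use all 4 libraries with their standard error, and triangles leave out CD replicate 1 (green) or CD replicate 2 (purple). HSFA4D (1.16) and HSFA2D (-0.76) lie farthest from 0 in class A, and the green triangles of many small HSPs lie near or left of 0 where the purple ones lie to the right.

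Among the class A factors, HSFA2D was lower and HSFA4D higher in both CD libraries, while the most abundant member, HSFA1, was level in all libraries. The class had 6 of 7 members tested, 5 of them above 0 (beside 51.0% of all genes), with a median of 0.08. HSFA1 (LOC_Os03g63750), whose tomato and Arabidopsis counterparts are master regulators of the heat response, had 131 and 126 TPM in CD libraries, against 116 and 116 TPM in CK libraries. It made up 56.9% and 58.5% of the class in CD libraries, against 58.9% and 56.5% in CK libraries. Its log2 fold change was 0.03 ± 0.14 (SE), and it stayed between 0.02 and 0.03 whichever library was left out. HSFA1 thus carried more than the rest of its class together in each library, at a level that differed by less than its error.

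HSFA2D (LOC_Os03g06630, chromosome 3 from 3342254 to 3344548, plus strand) encodes a factor that in rice also acts in shoot gravitropism, upstream of LAZY1. It had 14.3 and 16.7 TPM in CD libraries, against 21.4 and 26.9 TPM in CK libraries, from 830 and 631 counts against 1345 and 1270 counts. The 2 CD values were both under the 2 CK values. The log2 fold change was -0.76 ± 0.21 (edgeR adjusted p = 0.474). It stayed below 0 without each library in turn, between -0.91 and -0.58. DESeq2 gave an adjusted p of 0.158, within a range of 0.158 to 1.0 over the alternatives.

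HSFA4D (LOC_Os05g45410, chromosome 5 from 26344414 to 26346889, plus strand) is known in rice as SPL7, whose loss produces spotted leaf lesions. It had 19.3 and 7.49 TPM in CD libraries, against 5.21 and 5.76 TPM in CK libraries. The groups did not overlap, but the CD libraries were 2.51-fold apart and CD replicate 2 lay close to the control. The log2 fold change was 1.16 ± 0.45 (edgeR adjusted p = 0.574). Leaving out CD replicate 1 gave 0.35, and leaving out CD replicate 2 gave 1.67. DESeq2 gave an adjusted p of 0.236, within a range of 0.112 to 1.0 over the alternatives.

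The remaining class A members differed by less. HSFA2E (LOC_Os03g58160) had 42.0 and 44.1 TPM in CD libraries, against 36.6 and 36.6 TPM in CK libraries, with a log2 fold change of 0.11 ± 0.14. HSFA2C (LOC_Os10g28340), of the subgroup that in Arabidopsis amplifies the heat response, had 9.57 and 5.89 TPM in CD libraries, against 5.43 and 6.53 TPM in CK libraries. Only CD replicate 1 stood above the others for HSFA2C, and its log2 fold change of 0.25 ± 0.29 became -0.12 without that library. HSFA4B (LOC_Os01g54550) had 13.7 and 15.5 TPM in CD libraries, against 12.5 and 13.7 TPM in CK libraries, with a log2 fold change of 0.04 ± 0.18. HSFA2A (LOC_Os03g53340), of the same subgroup as HSFA2C, was not tested: it had 6 counts in CD replicate 1 and 0 counts in the other CD library and in both CK libraries.

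Among the class B and C factors, all 6 were tested and the median log2 fold change was 0.41, with 4 of 6 above 0 (beside 51.0% of all genes). In 3 of them, HSFB1, HSFB2A and HSFB2B, both CD values lay above both CK values (beside 17.8% of all genes). HSFB1 (LOC_Os09g28354) belongs to a subgroup known in Arabidopsis to repress heat-inducible genes when the heat has passed. It had 35.3 and 30.8 TPM in CD libraries, against 25.8 and 17.3 TPM in CK libraries. The groups did not overlap, and the log2 fold change was 0.50 ± 0.24 (edgeR adjusted p = 0.640). It was 0.24 without CK replicate 2, the lower control library, and 0.82 without CK replicate 1.

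HSFB2A (LOC_Os04g48030) had 16.1 and 12.2 TPM in CD libraries, against 10.8 and 10.05 TPM in CK libraries, and a log2 fold change of 0.33 ± 0.20 that was 0.13 without CD replicate 1. HSFB2B (LOC_Os08g43334), described in rice as a negative regulator of drought and salt tolerance, had 0.331 and 0.442 TPM in CD libraries, against 0.158 and 0.184 TPM in CK libraries. These are low levels, from 31 and 27 counts in CD libraries and 16 and 14 counts in CK libraries. The counted gene model is longer than the matched record, which covers 0.167 of its span. Part of these counts may therefore come from outside HSFB2B. The groups did not overlap for HSFB2B, with a log2 fold change of 1.05 ± 0.51 (edgeR adjusted p = 0.643) that lay between 0.81 and 1.27 without each library in turn.

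HSFB2C (LOC_Os09g35790) had 2.64 and 0.805 TPM in CD libraries, against 0.562 and 1.12 TPM in CK libraries. The CD libraries were 3.20-fold apart, and the log2 fold change of 0.92 ± 0.67 became -0.16 without CD replicate 1. HSFC2A (LOC_Os02g13800), which had the highest mean level of the 6, had 46.7 and 28.4 TPM in CD libraries, against 37.1 and 36.6 TPM in CK libraries. The 2 CK libraries lay between the 2 CD libraries, and the log2 fold change was -0.09 ± 0.25 (0.02 with total count scaling and 0.20 without CD replicate 2). HSFC1B (LOC_Os01g53220), whose product supports salt and osmotic stress tolerance in rice, showed the widest gap between CD libraries of the 12 tested factors, with 1.21 and 0.259 TPM in CD libraries, against 0.840 and 0.857 TPM in CK libraries. Its log2 fold change was -0.31 ± 0.75, from 57 and 8 counts in CD libraries and 43 and 33 counts in CK libraries.

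The small HSPs showed no common direction. Of 15 members 11 were tested, 6 were above 0 (beside 51.0% of all genes) and the median log2 fold change was 0.09. Both CD values were above both CK values for 2 of the 11, HSP18.0 and HSP24.1, a share near the 17.8% of all genes. Of the 4 that were not tested, HSP16.6 had 8 and 0 counts in CD libraries and 3 and 4 counts in CK libraries. HSP16.9C had 2 and 2 counts in CD libraries and 3 and 6 counts in CK libraries. HSP26.7, the chloroplast small HSP, had 2 and 0 counts in CD libraries and 4 and 0 counts in CK libraries. HSP21.9 had 0 counts in all 4 libraries, which allows a level of up to 0.0401 and 0.0609 CPM in the CD libraries and 0.0374 and 0.0494 CPM in the CK libraries, by counting error only.

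HSP17.9B (LOC_Os01g04350, chromosome 1 from 1941003 to 1941953, plus strand) had 322 and 501 TPM in CD libraries, against 469.9 and 374 TPM in CK libraries. In TPM the CD libraries held both the lowest and the highest value, while on TMM-scaled CPM CK replicate 1 (256 CPM) was just above CD replicate 2 (254 CPM). Its log2 fold change was -0.15 ± 0.28 and lay above 0 without CD replicate 1 (0.15) or CK replicate 1 (0.03). With HSP17.9B the small HSPs summed to 384 and 547 TPM in CD libraries, against 508 and 421 TPM in CK libraries. Without it the other 14 summed to 62.8 and 46.2 TPM in CD libraries, against 37.8 and 47.7 TPM in CK libraries. The class total thus followed HSP17.9B, whose level was lowest in the library where the sum of the other small HSPs was highest, CD replicate 1.

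HSP24.1 (LOC_Os02g52150) had 3.50 and 1.46 TPM in CD libraries, against 1.33 and 1.31 TPM in CK libraries. CD replicate 1 stood apart from the other 3 libraries, which lay close together. The log2 fold change of 0.79 ± 0.48 was 0.05 without CD replicate 1. HSP18.0 (LOC_Os01g08860) had 6.97 and 5.56 TPM in CD libraries, against 3.48 and 4.81 TPM in CK libraries, with a log2 fold change of 0.48 ± 0.32 (0.32 on leaving out CD replicate 1). HSP17.9A (LOC_Os03g15960) had 19.2 and 8.93 TPM in CD libraries, against 7.18 and 9.90 TPM in CK libraries, with a log2 fold change of 0.60 ± 0.41 (-0.03 on leaving out CD replicate 1). HSP17.7 (LOC_Os03g16040) had 14.8 and 20.1 TPM in CD libraries, against 14.1 and 19.6 TPM in CK libraries. For HSP17.7 the replicates differed more within each group than the groups did, and its log2 fold change of -0.07 ± 0.31 was 0.03 with total count scaling.

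The other 6 tested small HSPs had low levels, and each of them is named here only to account for it. HSP18.6 had 2.58 and 0.548 TPM in CD libraries, against 0.761 and 0.776 TPM in CK libraries. HSP17.4 had 4.66 and 1.28 TPM in CD libraries, against 1.84 and 1.80 TPM in CK libraries. In both genes CD replicate 1 was the highest library and CD replicate 2 the lowest, with log2 fold changes of 0.92 ± 0.78 for HSP18.6 and 0.60 ± 0.68 for HSP17.4. HSP16.9A had 3.46 and 1.58 TPM in CD libraries, against 3.35 and 1.30 TPM in CK libraries. For HSP16.9A, replicate 1 was the higher in both groups. HSP16.9B had 4.93 and 4.42 TPM in CD libraries, against 3.43 and 4.64 TPM in CK libraries, and a log2 fold change of 0.09 ± 0.32. HSP18.1 had 2.04 and 2.13 TPM in CD libraries, against 1.70 and 2.71 TPM in CK libraries, and a log2 fold change of -0.20 ± 0.40. In both the groups overlapped. HSP16.0 had the lowest log2 fold change of all members, -0.81 ± 0.82, on 14 and 2 counts in CD libraries and 13 and 14 counts in CK libraries.

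Of the 15 small HSP genes, 9 lie in 2 clusters, and neighbours within them differed widely in level. On chromosome 1, 5 members lie within 18.7 kb (1934117 to 1952771). HSP17.9B averaged 416 TPM over the 4 libraries there, beside 0.102 TPM for HSP16.6, 0.117 TPM for HSP16.9C, 2.42 TPM for HSP16.9A and 4.35 TPM for HSP16.9B. The highest mean was 4069-fold the lowest. On chromosome 3, 4 members lie among 9 genes within 32.9 kb (8805567 to 8838510), and their means ranged only 7.99-fold: 11.3 TPM for HSP17.9A, 2.39 TPM for HSP17.4, 2.14 TPM for HSP18.1 and 17.1 TPM for HSP17.7. Coding sequences of such neighbouring small HSP genes are known to be similar, so the share of reads that the authors' counting gave to each copy is uncertain. The gene models of HSP17.4 (465 bases) and HSP17.7 (480 bases) are about as long as a small HSP coding sequence, and their TPM is not fully comparable with that of models with untranslated ends.

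**Figure D3:**
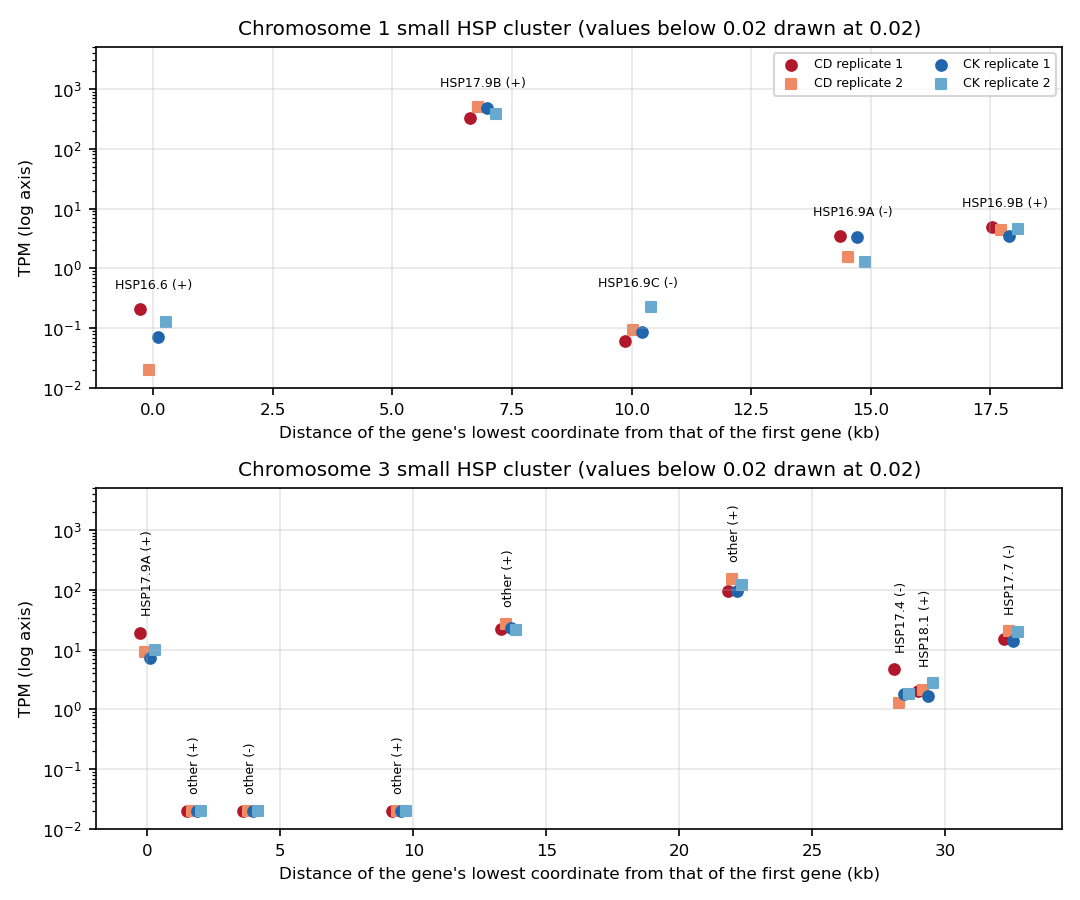
TPM on a log axis of each gene in the small HSP clusters of chromosome 1 (top) and chromosome 3 (bottom) by distance from the first gene of the cluster, with the strand in parentheses; the 4 libraries of a gene are offset sideways. HSP17.9B stands at 322 to 501 TPM between neighbours under 1 TPM, and the genes marked as other on chromosome 3 are not heat shock members.

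CLPB1 (LOC_Os05g44340, chromosome 5 from 25803530 to 25807160, minus strand) encodes HSP101, the disaggregase required for thermotolerance. It was barely present, with 0.842 and 0.40 TPM in CD libraries, against 0.351 and 0.339 TPM in CK libraries, from 113 and 35 counts against 51 and 37 counts. CD replicate 1 was 2.06-fold above CD replicate 2, and CD replicate 2 lay just above the control libraries. The log2 fold change was 0.73 ± 0.49 (edgeR adjusted p = 0.773). Leaving out CD replicate 1 gave 0.11, and leaving out CD replicate 2 gave 1.15.

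The HSP90 genes differed little between the groups. Of these genes 3 of 4 were tested, and all 3 lay above 0 (beside 51.0% of all genes). Their log2 fold changes ran from 0.11 to 0.24, and none of the 3 genes separated the groups on TMM-scaled CPM. HSP81-2 (LOC_Os09g30412) had 674 and 443 TPM in CD libraries, against 367 and 517 TPM in CK libraries. The groups overlapped, with a log2 fold change of 0.22 ± 0.30 that became -0.10 without CD replicate 1 and -0.01 without CK replicate 1. This gene lies in a tandem array with LOC_Os09g30418, listed as another HSP90 gene, which had 20.5 and 18 TPM in CD libraries, against 13.5 and 23.6 TPM in CK libraries. The symbol was assigned by position, and reads shared between the copies of the array make the level of each uncertain.

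HSP81-1 (LOC_Os08g39140) had 93.4 and 81.9 TPM in CD libraries, against 58.1 and 78.0 TPM in CK libraries, with a log2 fold change of 0.24 ± 0.20. LOC_Os12g32986 had 42.4 and 36.8 TPM in CD libraries, against 34.9 and 32.8 TPM in CK libraries, with a log2 fold change of 0.11 ± 0.15. In both, the CD libraries lay above the CK libraries in TPM but overlapped them in TMM-scaled CPM. Over all genes, the median log2 fold change was 0.10 on log2(TPM + 1), against 0.01 by edgeR with TMM. LOC_Os04g01740 was not tested, with 8 and 1 counts in CD libraries and 6 and 10 counts in CK libraries. Leaving out HSP81-2, the HSP90 genes summed to 136 and 119 TPM in CD libraries, against 93.0 and 111 TPM in CK libraries.

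The HSP70 genes had a median log2 fold change of 0.21, all 5 were tested and 4 lay above 0 (beside 51.0% of all genes). LOC_Os11g47760 was the most abundant of all 38 members, with 3301 and 2417 TPM in CD libraries, against 1794 and 2731 TPM in CK libraries. CD replicate 1 was the highest library and CK replicate 1 the lowest, and CD replicate 2 and CK replicate 2 lay between them in the reverse order. Its log2 fold change of 0.21 ± 0.33 was -0.01 without CD replicate 1 and -0.05 without CK replicate 1. LOC_Os03g16860 had the same order of libraries, with 242 and 153 TPM in CD libraries, against 125 and 190.0 TPM in CK libraries, and a log2 fold change of 0.20 ± 0.31.

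LOC_Os01g62290 had 34.2 and 32 TPM in CD libraries, against 18.07 and 25.3 TPM in CK libraries. Its CD libraries lay close together and above both control libraries, with the lowest p of the class (log2 fold change 0.49 ± 0.21, edgeR adjusted p = 0.587). It stayed between 0.27 and 0.76 without each library in turn. LOC_Os05g38530 had 13.7 and 9.15 TPM in CD libraries, against 8.08 and 8.30 TPM in CK libraries, and a log2 fold change of 0.36 ± 0.24 (0.06 on leaving out CD replicate 1). LOC_Os03g60620 was the only HSP70 member below 0, with 93.6 and 66.4 TPM in CD libraries, against 72.6 and 91.1 TPM in CK libraries, and a log2 fold change of -0.16 ± 0.23 (0.05 on leaving out CD replicate 2). Near-identical cytosolic HSP70 copies can share reads, so the split between these genes is uncertain.

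The members were often highest in CD replicate 1, whether or not CD replicate 2 also lay above the control. CD replicate 1 was the highest of the 4 libraries for 21 of the 32 tested members, beside 29.3% of all genes. CD replicate 2 was the lowest for 6 of the 32, beside 25.4% of all genes. CD replicate 1 was at least 2-fold above CD replicate 2 for 10 of the 32, beside 9.46% of all genes. Counted either way, the CD libraries were at least 2-fold apart for the same 10 of the 32, beside 14.3% of all genes. The 10 are HSFA4D, HSFB2C, HSFC1B, CLPB1 and 6 small HSPs (HSP17.9A, HSP17.4, HSP16.9A, HSP18.6, HSP24.1 and HSP16.0). In the control libraries 1 of the 32 members, HSP16.9A, was 2-fold apart, beside 8.58% of all genes. These counts describe these libraries and are not a test of the list.

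The median deviation from the mean of the 4 libraries differed between classes. On the log2 scale it was 0.32 in CD replicate 1 and -0.12 in CD replicate 2 for all members, against -0.18 in CK replicate 1 and -0.01 in CK replicate 2. The small HSPs lay at 0.32 and -0.23 in the CD libraries, against -0.18 and -0.03 in the CK libraries. The class B and C factors lay at 0.33 and -0.19 in the CD libraries, against -0.04 and -0.06 in the CK libraries. By this median, CD replicate 1 was the highest library and CD replicate 2 the lowest in the small HSPs and in classes B and C. The summed TPM of the small HSPs ran the other way, with 384 TPM in CD replicate 1 and 547 TPM in CD replicate 2. By gene, CD replicate 2 was the lowest library for 3 of the 11 small HSPs, beside 25.4% of all genes. CLPB1, the only HSP101 gene, lay at 0.55 and -0.14 in the CD libraries, against -0.19 and -0.22 in the CK libraries. The median of the class A factors showed no such pattern and stayed between -0.08 and 0.01 in all libraries. By gene, CD replicate 1 was the highest library for 3 of 6 class A factors and 5 of 11 small HSPs, beside 29.3% of all genes. HSP90 (0.21 and -0.03 in the CD libraries, against -0.34 and 0.08 in the CK libraries) and HSP70 (0.32 and -0.10 in the CD libraries, against -0.40 and 0.19 in the CK libraries) differed from the small HSPs in that CK replicate 1 was the lowest. All genes tested stayed between -0.01 and 0.01.

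**Figure D4:**
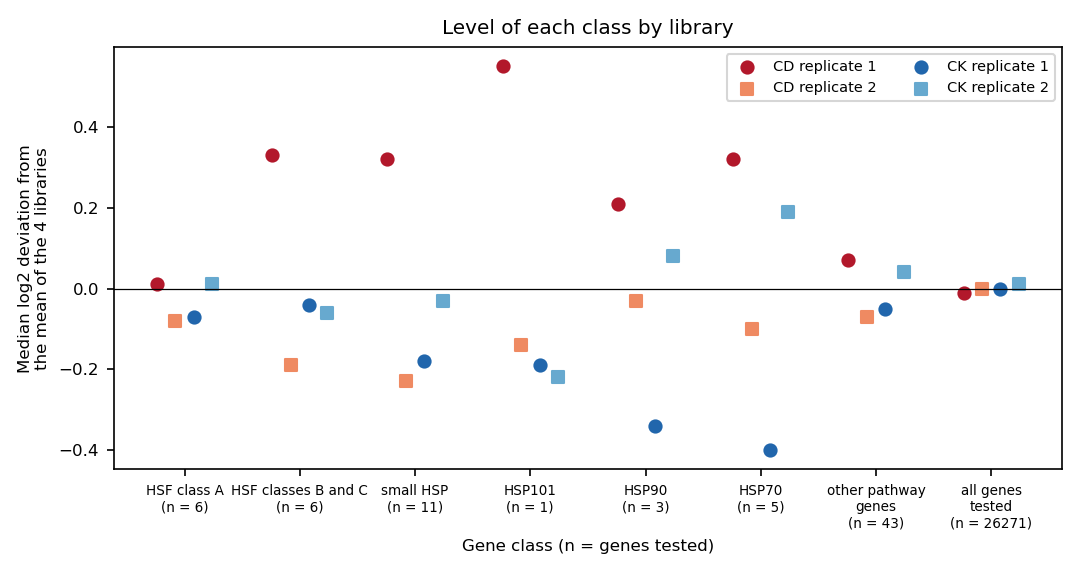
Median log2 deviation from the mean of the 4 libraries for the tested members of each class, for the other pathway genes and for all genes tested, with 1 point per library (CD replicates left of CK replicates). CD replicate 1 is the highest point in every heat shock class except class A, where it lies at 0.01 together with CK replicate 2.

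By class, the median log2 fold change without CD replicate 1 was -0.01 for the class B and C factors (0.53 without CD replicate 2). It was -0.03 for the small HSPs (0.42 without CD replicate 2) and -0.01 for HSP70 (0.48). Without CK replicate 1 the median was 0.44 for classes B and C, 0.27 for the small HSPs and -0.05 for HSP70. Without CK replicate 2 it was 0.26, 0.33 and 0.54 in the same order. The 3 tested HSP90 genes had -0.10 (HSP81-2), 0.17 (HSP81-1) and 0.02 (LOC_Os12g32986) without CD replicate 1, and 0.47, 0.32 and 0.19 in the same order without CD replicate 2. These genes had -0.01, 0.05 and 0.15 without CK replicate 1, and 0.49, 0.48 and 0.07 without CK replicate 2. Class A kept a value near that of the full fit, with 0.08 when CD replicate 1 was left out and 0.04 when CD replicate 2 was. Leaving out CD replicate 1 turned the sign of 10 of the 32 members, CD replicate 2 that of 5, CK replicate 1 that of 7 and CK replicate 2 that of 3. Sign changes were not counted over all genes, so these counts do not show whether the members differ from other genes in this. The 5 leaf markers summed to 18091 and 10718 TPM in CD libraries, against 22106 and 31604 TPM in CK libraries, mostly from the activase gene rca and the RuBisCO gene RBCS. For rca, CAB1R and CAB2R the groups overlapped. CAB1R and CAB2R were lowest in CD replicate 1, unlike the sum, which was lowest in CD replicate 2. For RBCS and the leaf marker LOC_Os12g19470 both CD values lay under both CK values. DESeq2 called both genes lower (adjusted p = 0.00879 for RBCS and 1.58e-05 for LOC_Os12g19470), and edgeR called neither (adjusted p = 0.476 and 0.46). Genes of secondary wall synthesis (CESA4, CESA7 and CESA9) summed to 344 and 695 TPM in CD libraries, against 549.8 and 361 TPM in CK libraries. Like HSP17.9B in TPM, this sum was highest in CD replicate 2 and lowest in CD replicate 1. The shoot meristem marker OSH1 was at 0 TPM in both CD libraries, against 0.968 and 0.462 TPM in CK libraries. DESeq2 called OSH1 lower (adjusted p = 0.000107), and edgeR did not (adjusted p = 0.46). PCNA, a marker of dividing cells, had 35.7 and 31.8 TPM in CD libraries, against 28.9 and 30.6 TPM in CK libraries. The part of these markers, and of depth, in the member values was not tested.

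Another 51 genes of the same pathway were read in the same fit. They comprise further HSFs, small HSPs, HSP70, HSP90 and ClpB genes, cochaperones and regulators of HSFs, and heat-inducible galactinol synthases; 50 were in the table and 43 were tested. edgeR called 0 of the 43 in either direction (beside 0.0% of all genes). At an unadjusted p under 0.05 it gave 0 higher (beside 3.33% of all genes) and 2 lower (4.65%, beside 5.37%). DESeq2 called 1 of the 43 lower (beside 1.15% of all genes) and 0 higher (beside 0.757%). The median log2 fold change was 0.08 and 27 of the 43 were above 0 (62.8%, beside 51.0% of all genes). Both CD values lay above both CK values for 5 of the 43 (11.6%, beside 17.8% of all genes) and below both for 9 (20.9%, beside 20.7%). CD replicate 1 was the highest library for 18 of the 43 (41.9%, beside 29.3% of all genes), and it was at least 2-fold above CD replicate 2 for 3 of them (6.98%, beside 9.46%).

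The gene that DESeq2 called is HSFC1A (LOC_Os01g43590, chromosome 1 from 24967398 to 24969047), a class C factor like HSFC1B and HSFC2A. It had 0.761 and 0.490 TPM in CD libraries, against 2.66 and 1.66 TPM in CK libraries, from 50 and 21 counts against 189 and 89 counts. The 2 CD values were both under the 2 CK values. The log2 fold change was -1.90 ± 0.45 (edgeR adjusted p = 0.460), and HSFC1A fell by DESeq2 (adjusted p = 0.0383, within a range of 0.0383 to 1.0 over the alternatives). It lay between -2.24 and -1.52 without each library in turn. In the other direction the lowest p was that of LOC_Os09g31486, entered as an HSP70 gene, with 26.3 and 13.2 TPM in CD libraries, against 9.58 and 10.8 TPM in CK libraries. Its log2 fold change of 0.83 ± 0.34 (edgeR adjusted p = 0.586) was 0.27 without CD replicate 1.

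The other pathway gene under an unadjusted p of 0.05, named after its values were seen, was LOC_Os05g23740, also entered as an HSP70 gene. It had 171 and 170.1 TPM in CD libraries, against 265 and 231 TPM in CK libraries, and a log2 fold change of -0.66 ± 0.17 (edgeR adjusted p = 0.470). The CD values of this gene lay close together and under both CK values.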

How the data were processed

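Raw counts per gene, deposited by the authors with no normalization per the file headers, were read from a table of 55801 genes laid out as featureCounts writes it. TPM values deposited by the authors matched the counts divided by gene length and scaled, within 3.64e-06. Tools named in the submitters' processing notes, without their roles, are featureCounts 1.6.4, HISAT2 2.0.5, fastp 0.21.0, SAMtools 1.9, FastQC 0.11.5, Bowtie2 and Bismark 0.23.0. For the genome build and strand setting: not given in the sources used here. All positions printed are the count table's. The series lists 8 samples, of which 4 bisulfite samples were not analysed here.

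CD was compared with CK over all genes by edgeR 4.0.16 in R 4.3.3 (TMM, filterByExpr, quasi-likelihood F test, Benjamini-Hochberg adjustment at 0.05), checked on simulated data; 26271 genes were kept. Log2 fold changes are CD over CK. Deviations by library used log2(CPM + 0.5) with TMM library sizes. The floor for a count of 0 was 3 counts per library. Alternatives were RLE or total count scaling, no filter, 1 CPM in 2 libraries, DESeq2 1.42.0, each library left out, a replicate block, and limma-trend (limma 3.58.1) on TPM with a pseudocount of 1 or 0.1 before log2; a crossed block was added after the data were seen.

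Symbols were matched by position to RefSeq records (assembly ASM3414082v1, another build, names only), by the offset shared with neighbours within 150000 bases and an overlap of at least 0.4. Members and lists were chosen with earlier results of these data known. Named with values were, per class, the 2 members with the highest mean TPM and up to 3 more with the lowest unadjusted edgeR p. From the pathway list the rule took the lowest p in each direction and each DESeq2 call. Other members are named only to account for them.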

Additional observations from a re-analysis of the deposited data

How the results depend on the processing

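No member passed an adjusted p of 0.05 under any alternative, and their lowest adjusted p was 0.112 (HSFA4D without CD replicate 2). In the whole table, 29 genes were called by edgeR with no filter (14 higher and 15 lower) and DESeq2 called 502; the other alternatives called 0, as did each fit without 1 library (0 to 0 for all genes, the members and the pathway list). DESeq2 called 1 pathway gene, HSFC1A (-1.89). The members' median log2 fold change was 0.32 with total count scaling, where that of all genes was 0.11, and 0.33 on log2(TPM + 0.1), where it was 0.12. It lay between 0.02 and 0.42 without 1 library.

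Among named genes, the direction turned for HSFC2A with total count scaling (0.02) and for HSP17.7 with total count scaling (0.03) and limma on either TPM scale (0.05). Without 1 library it turned for HSFA2C (-0.12 to 0.54), HSFC2A (-0.47 to 0.20), HSFB2C (-0.16 to 1.51), HSP17.9B (-0.53 to 0.15), HSP17.7 (-0.33 to 0.19) and HSP17.9A (-0.03 to 1.03). It also turned for HSP81-2 (-0.10 to 0.49), LOC_Os11g47760 (-0.05 to 0.55), LOC_Os03g16860 (-0.15 to 0.54) and LOC_Os03g60620 (-0.40 to 0.05). The cause was not tested.

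With the replicate number as a block, edgeR called 0 genes and 0 members, with 1670 genes and 1 member at an unadjusted p under 0.05 (2286 genes and 2 members without the block), and the members' median was 0.21. The numbers do not pair the samples by the labels, and the differences between replicates 1 and 2 of CD and CK correlated at -0.204 across genes. With the pairing crossed, a choice made after the data were seen, 0 genes and 0 members were called, with 2922 genes and 3 members at an unadjusted p under 0.05.

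With 2 libraries a group, no member's difference passed the test, and members under 1 TPM rest on few counts.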
